A study of Homo sapiens with 15 samples.

Results

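The genes described here are 10 STAT5 targets and JAK feedback genes: the feedback inhibitors CISH, SOCS1, SOCS2 and SOCS3, the kinases PIM1 and PIM2, the cytokine OSM, and the transcription regulators ID1, BCL6 and MYC. They were chosen by name for their place in the JAK-STAT5 pathway, and every entry with a listed symbol was taken from 2 tables of normalized counts. Of the 10 genes, 9 were present among 17769 genes of the knockout table and 10 among 60510 genes of the resistance table. Of the 10, 9 passed the filter on low values and were tested in either table, among 17039 and 16503 tested genes.

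JAK kinases bound to cytokine receptors phosphorylate STAT5, which pairs, enters the nucleus and switches on target genes. Several targets code for SOCS proteins, which bind receptors or JAKs and damp the signal that made them, and others code for PIM kinases and regulators of growth and survival. In chronic myeloid leukemia cells the BCR-ABL1 kinase keeps STAT5 active without cytokine, and several kinases of the pathway fold with the help of the chaperone HSP90.

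The libraries came from K562, a BCR-ABL1-positive chronic myeloid leukemia line. The knockout table held 3 libraries each of cells with Cas9 and an empty vector (EV), with a guide against HSP90AA1 (HSP90α-KO) and with a guide against HSP90AB1 (HSP90β-KO). These cells were transduced with lentivirus and selected on a fluorescent marker, and the paper describes the knockouts as clones. The resistance table held 3 libraries of PUHr cells, clones picked after rising amounts of the HSP90 inhibitor PU-H71, and 3 of parental cells given DMSO. The labels do not give the number of clones in a group, and they do not say whether replicates are separate cultures, so a p-value measures only the spread between libraries, and a difference between clones cannot be told apart from an effect of the knockout or of resistance. HSP90α-KO and HSP90β-KO share the EV libraries, and the tables were normalized separately, so no level was tested between tables.

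HSP90AA1 stood at 716, 683 and 713 CPM (counts scaled to an effective library size) in EV. It stood at 92.6, 88.0 and 90.8 CPM in HSP90α-KO and at 1218, 1190.4 and 1209.8 CPM in HSP90β-KO. HSP90AB1 stood at 2823, 2782 and 2812 CPM in EV, at 3267, 3309.8 and 3344 CPM in HSP90α-KO and at 1939, 1909 and 1889 CPM in HSP90β-KO. In each knockout the RNA of the targeted gene was below EV in all 3 libraries and the RNA of the other gene was above it. HSP90AA1 measured 1721, 1719.8 and 1696 CPM in parental cells and 1559, 1592 and 1553 CPM in PUHr, and HSP90AB1 measured 4578, 4497 and 4517 CPM in parental cells and 3953, 3759.7 and 3828 CPM in PUHr. Both genes were lower in all 3 PUHr libraries than in any parental library. The paper reports that PUHr cells gained copies of the region holding HSP90AA1 and carry a missense variant in that gene. The higher HSP90α it reports in PUHr cells given PU-H71 again was measured as protein, while the levels here are RNA.

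The label of the line was checked on markers. Of 10 K562 and erythroid markers, 9 were listed in the knockout table, none at 0 reads, and their summed level was 666 to 708 CPM in EV, 570.0 to 615 CPM in HSP90α-KO and 589 to 591 CPM in HSP90β-KO, with GATA1 the most abundant. All 10 were listed in the resistance table, where they summed to 1640.4 to 1682 CPM in parental cells and 1436 to 1503 CPM in PUHr, with HBG1 or HBZ the most abundant and HBE1 at 0 reads in PUHr replicate 2. The line's own markers were thus present in every group. The lymphoid marker CD3D stood at 4.47 to 4.99 CPM in EV, 3.08 to 3.99 CPM in HSP90α-KO and 11.2 to 12.0 CPM in HSP90β-KO, and at 8.21 to 8.54 CPM in parental cells and 6.10 to 6.91 CPM in PUHr. CD3E stood at 3.14 to 3.61 CPM in EV, 0.154 to 0.586 CPM in HSP90α-KO and 4.04 to 5.29 CPM in HSP90β-KO, and at 0.629 to 1.17 CPM over parental cells and PUHr. Both were lowest in HSP90α-KO and highest in HSP90β-KO, with no overlap between the knockout table groups. CD79A was at most 0.555 CPM in any library, and MS4A1 and IGHM were at 0 reads in all 6 libraries of the resistance table. Stromal and epithelial markers, 3 of 6 listed in the knockout table, summed to 61.5 to 70.7 CPM over its libraries, nearly all of it EPCAM. In the resistance table, where all 6 were listed, they summed to 85.9 to 89.0 CPM in parental cells and 31.2 to 33.5 CPM in PUHr. EPCAM made up 75.2 to 78.1 CPM of that sum in parental cells and 25.4 to 28.0 CPM in PUHr. COL1A2 stood at 5.20 to 5.79 CPM in parental cells and 0.0402 to 0.222 CPM in PUHr. COL1A1 went the other way, at 3.72 to 3.90 CPM in parental cells and 5.02 to 5.38 CPM in PUHr. CDH1 was at 0 reads in all 3 PUHr libraries and in parental replicate 3, and ALB in PUHr replicates 2 and 3. The part of these markers in the results was not tested, and in bulk RNA fewer cells that express a gene and less RNA per cell cannot be told apart.

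In HSP90α-KO against EV, 8 of the 9 tested members passed the test (limma with Benjamini-Hochberg adjustment over all tested genes, adjusted p under 0.05), 6 higher and 2 lower, where 54.2% of all tested genes passed. With a log2 fold change beyond 1 as well, which is called changed here, ID1 alone remained, 1 of 9, where 10.3% of all genes did. In HSP90β-KO against EV, 5 of 9 members passed, 4 higher and 1 lower, where 34.4% of all genes passed, and 0 of 9 changed, where 4.48% of all genes did. That count of 0 came from limma, and it was also 0 with unadjusted p under 0.05 and with limma-voom, while 8 members had an unadjusted p under 0.05 at any fold change, where 43.0% of all tested genes did. In HSP90α-KO against HSP90β-KO, 8 of 9 members passed, 3 higher and 5 lower in HSP90α-KO, where 59.9% of all genes passed, and 0 changed by limma, where 12.7% of all genes did. This count of 0 was the same with unadjusted p under 0.05 and with limma-voom. In PUHr against parental cells, 7 of 9 members passed, 5 higher and 2 lower, where 51.4% of all genes passed, and 0 changed by limma, with unadjusted p under 0.05 and with limma-voom, where 10.1% of all genes did. Tables with this many passing genes make a pass alone a common event. The median absolute log2 fold change of the members was 0.16 in HSP90α-KO against EV and 0.13 in HSP90β-KO against EV, where all tested genes had 0.24 and 0.15. It was 0.27 in HSP90α-KO against HSP90β-KO, a value that 50.2% of all tested genes exceeded. In PUHr against parental cells it was 0.32, where all tested genes had 0.21.

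**Figure D1:**
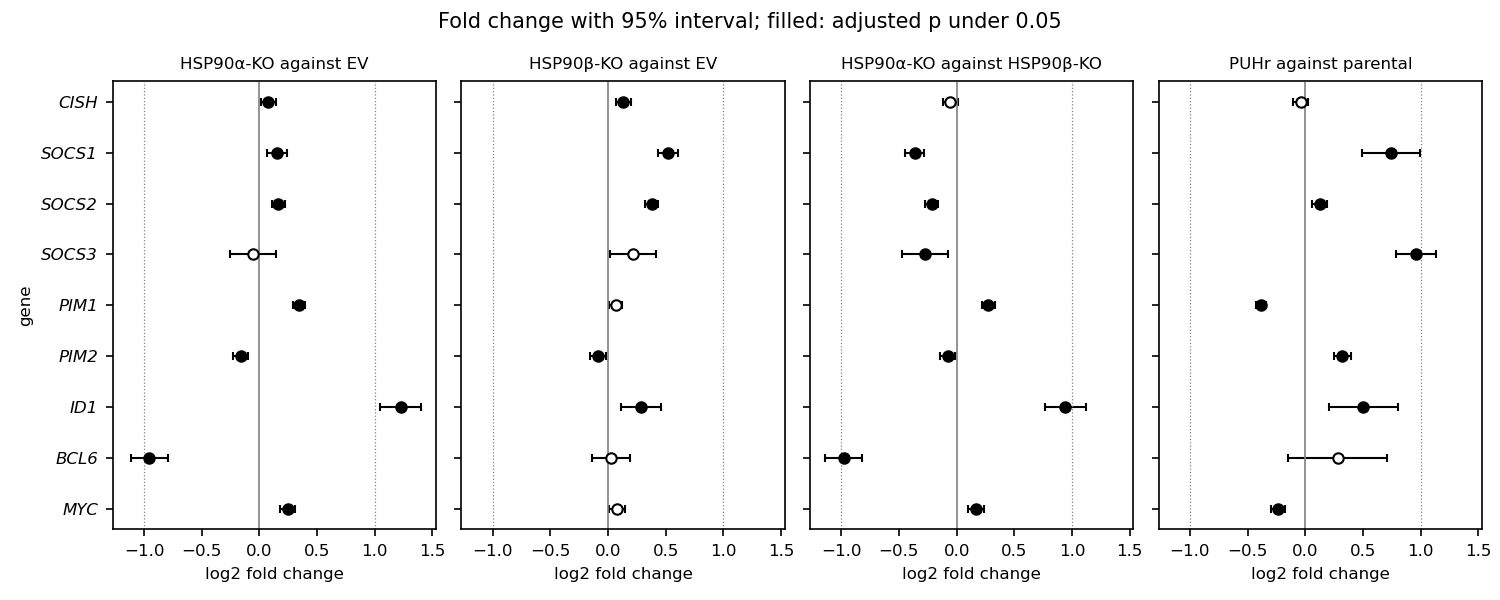
Log2 fold change of the 9 tested members in 4 comparisons with 95% intervals; filled points had an adjusted p under 0.05. Dotted lines mark log2 fold changes of -1 and 1.

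The fold changes plotted for the 4 comparisons show SOCS1 and SOCS2 further up in HSP90β-KO than in HSP90α-KO. PIM1, ID1 and MYC lay further up in HSP90α-KO. For CISH the difference between the knockouts did not pass, and SOCS3 did not pass against EV in either knockout. BCL6 was the only member near -1, in HSP90α-KO alone. SOCS3 and SOCS1 had the largest values in PUHr, where PIM1 and MYC lay below 0.

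STAT5 dimers bind the letters TTCNNNGAA, which read the same on both strands, and the promoters of the members were searched for them because these genes are grouped as STAT5 targets. RefSeq promoter windows (build GRCh38.p14) matched 7 of the 10 members by symbol. The table held no entry for SOCS2, OSM and MYC. In the 250 bases before the start, CISH held 4 matches: TTCCGGGAA with its first base 112 bases before the start, TTCTAGGAA at 129, TTCTTGGAA at 230 and TTCCTGGAA at 241. Of 35114 windows of that length, 6.57% held a match, 0.356% held more than 1, and 5 windows held 4, the highest number in a window. BCL6 held 1 match, TTCCGAGAA at 28 bases, in 1 of its 2 windows. Both of these windows lie wholly within annotated exons of BCL6. The letters were absent from the windows of SOCS1, SOCS3, PIM1, PIM2 and ID1, which says nothing about sequence outside them. The stretch of the CISH promoter outside annotated exons is shown for its 2 nearest matches, in capitals, beside the windows of PIM1 and SOCS1, the members with the largest rise among kinases and inhibitors in the knockouts, which hold no match. They lie at chr3:50611775-50611907 (minus strand), chr6:37169902-37170151 (plus strand) and chr16:11256205-11256454 (minus strand), each ends at the base before the start, and all are given 5′ to 3′.
CISH: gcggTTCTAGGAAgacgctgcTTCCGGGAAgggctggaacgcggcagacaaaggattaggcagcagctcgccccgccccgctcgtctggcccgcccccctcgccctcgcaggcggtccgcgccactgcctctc
PIM1: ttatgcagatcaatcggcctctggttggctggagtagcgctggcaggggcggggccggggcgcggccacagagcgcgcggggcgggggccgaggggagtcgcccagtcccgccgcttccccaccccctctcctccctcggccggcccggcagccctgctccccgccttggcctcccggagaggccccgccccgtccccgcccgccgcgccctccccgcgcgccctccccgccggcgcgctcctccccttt
SOCS1: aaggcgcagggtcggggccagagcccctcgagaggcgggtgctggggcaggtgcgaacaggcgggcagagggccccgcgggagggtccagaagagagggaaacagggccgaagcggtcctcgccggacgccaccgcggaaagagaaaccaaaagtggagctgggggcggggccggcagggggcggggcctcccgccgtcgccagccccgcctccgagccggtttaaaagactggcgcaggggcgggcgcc

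CISH, which codes for a SOCS protein that blocks STAT5 docking on receptors, stood at 228, 236 and 237 CPM in EV, at 257, 243 and 239.9 CPM in HSP90α-KO and at 258, 258 and 252 CPM in HSP90β-KO. All 6 knockout libraries lay above all 3 EV libraries by a small margin, and the knockout groups overlapped. In HSP90α-KO against EV the log2 fold change of CISH was 0.08 (95% interval 0.01 to 0.14, adjusted p = 0.0425). That call was lost in 10 of 20 alternatives, with an adjusted p of 0.0139 to 0.962 over the 20. Those 10 included the replicate block (adjusted p = 0.0601), quantile normalization and the omission of EV replicate 1, EV replicate 3, HSP90α-KO replicate 1 or any HSP90β-KO replicate. The value was 0.002 with quantile normalization and 0.05 without HSP90α-KO replicate 1. In HSP90β-KO against EV the log2 fold change of CISH was 0.13 (95% interval 0.07 to 0.20, adjusted p = 0.00182), a call kept in all 20 alternatives. Between the knockouts, HSP90α-KO against HSP90β-KO, CISH had -0.05 (adjusted p = 0.142), a difference that passed only with quantile normalization and without HSP90α-KO replicate 1 (adjusted p 0.00102 to 0.783 over the alternatives). It was -0.13 with quantile normalization, -0.08 without HSP90α-KO replicate 1, -0.03 without HSP90α-KO replicate 3 and -0.01 with median centring. In the resistance table CISH stood at 146, 141 and 136 CPM in parental cells and at 139.9, 134 and 137 CPM in PUHr. The groups overlapped, and the log2 fold change was -0.04 (adjusted p = 0.307, 0.0363 to 0.878 over 16 alternatives, passing only with median centring at -0.09), and it was -0.01 with quantile normalization and without parental replicate 1. CISH shares 218 exon bases with MAPKAPK3 on the other strand, and the strand setting of the counting is not known.

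SOCS1 codes for an inhibitor that binds the JAK kinase domain. SOCS1 stood at 51.0, 52.3 and 55.2 CPM in EV, at 60.2, 59.1 and 57.2 CPM in HSP90α-KO and at 73.8, 76.3 and 77.3 CPM in HSP90β-KO. The 3 groups did not overlap, with HSP90β-KO highest and EV lowest. The gene rose in both knockouts, with a log2 fold change of 0.16 in HSP90α-KO (95% interval 0.07 to 0.24, adjusted p = 0.00245). SOCS1 had 0.52 in HSP90β-KO (95% interval 0.44 to 0.61, adjusted p = 9.1e-11), and 14.6% of tested genes had a larger absolute value. HSP90α-KO against HSP90β-KO gave -0.37 (adjusted p = 2.1e-08), so the difference between the knockouts passed too. These 3 calls were kept in all 20 alternatives.

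In the resistance table SOCS1 stood at 10.8, 9.73 and 11.4 CPM in parental cells and at 15.9, 22.8 and 15.7 CPM in PUHr. All PUHr libraries were above all parental libraries, and PUHr replicate 2 stood apart from the other 2. SOCS1 rose with a log2 fold change of 0.75 (95% interval 0.49 to 1.00, adjusted p = 8.9e-05). Without PUHr replicate 2 the log2 fold change was 0.57 (adjusted p = 1.4e-07), and without the filter on low values the call was lost (adjusted p = 0.0785), in a range of 1.4e-07 to 0.0785 over 16 alternatives. PUHr replicate 2 also differed most from its group over all genes, with a chi-square per degree of freedom of 3.86 against replicate 1 and 2.98 against replicate 3, where replicates 1 and 3 gave 1.51.

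SOCS2, whose protein damps growth hormone and cytokine signalling, stood at 509, 493 and 504 CPM in EV, at 557, 554 and 574 CPM in HSP90α-KO and at 649, 664 and 644 CPM in HSP90β-KO. As with SOCS1, the groups were fully separated in the order EV, HSP90α-KO, HSP90β-KO. SOCS2 rose by a log2 fold change of 0.16 in HSP90α-KO (95% interval 0.11 to 0.22, adjusted p = 1.3e-05), which quantile normalization lowered to 0.08 (adjusted p = 0.00748, in a range of 1.5e-06 to 0.00748 over 20 alternatives). In HSP90β-KO the log2 fold change of SOCS2 was 0.38 (95% interval 0.32 to 0.44, adjusted p = 1.2e-11). Between the knockouts the log2 fold change of SOCS2 was -0.22 (adjusted p = 1.3e-07), and quantile normalization took it to -0.34 (adjusted p = 2.5e-11, in a range of 2.5e-11 to 0.00103 over 20 alternatives). In parental and PUHr libraries SOCS2 stood at 225, 224 and 228 CPM in parental cells and at 243, 258 and 236 CPM in PUHr. PUHr lay above parental cells in all libraries by a small margin. The log2 fold change of SOCS2 was 0.12 (95% interval 0.06 to 0.19, adjusted p = 0.00316), and the call was lost without the filter on low values (adjusted p = 0.142) and without the intensity trend (adjusted p = 0.0657), in a range of 0.000584 to 0.142, and median centring lowered the value to 0.08. SOCS2 shares 277 exon bases with SOCS2-AS1 on the other strand.

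SOCS3, the inhibitor best known from signalling through IL6ST, was the lowest of the 4 in CPM per kilobase of exon in the knockout table, where 1 read was 0.0381 to 0.0518 CPM and its counts were 135 to 240 reads. SOCS3 stood at 7.13, 7.23 and 8.54 CPM in EV, at 7.81, 6.99 and 7.14 CPM in HSP90α-KO and at 8.73, 8.36 and 9.50 CPM in HSP90β-KO. Both knockout groups overlapped EV, while all HSP90β-KO libraries lay above all HSP90α-KO libraries. The log2 fold change of SOCS3 was -0.06 in HSP90α-KO (adjusted p = 0.637), and it turned to 0.02 without EV replicate 3 (adjusted p 0.428 to 0.867 over 20 alternatives). SOCS3 in HSP90β-KO had a log2 fold change of 0.22 (adjusted p = 0.0869), which passed without EV replicate 3 at 0.30 (adjusted p = 0.0358, in a range of 0.0358 to 0.288) and was 0.14 with the pseudocount of 5 CPM. Between the knockouts SOCS3 had -0.27 (adjusted p = 0.0169), a call lost without HSP90α-KO replicate 2 or without HSP90β-KO replicate 3 (adjusted p 0.0108 to 0.0886 over 20 alternatives), and the pseudocount of 5 CPM gave -0.17.

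In PUHr the picture of SOCS3 was different. SOCS3 stood at 6.43, 5.998 and 6.24 CPM in parental cells, on 133 to 152 reads, and at 12.9, 12.1 and 11.7 CPM in PUHr, on 262 to 321 reads. The groups lay far apart, and PUHr replicate 2 was in the middle of its group. SOCS3 rose with a log2 fold change of 0.96 (95% interval 0.79 to 1.14, adjusted p = 1.5e-07), the largest of the members in this comparison, and 10.6% of tested genes had a larger absolute value. The pseudocount of 5 CPM gave 0.62 (adjusted p = 2.5e-07), and the call was kept in all 16 alternatives (adjusted p 4.0e-11 to 0.000672).

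**Figure D2:**
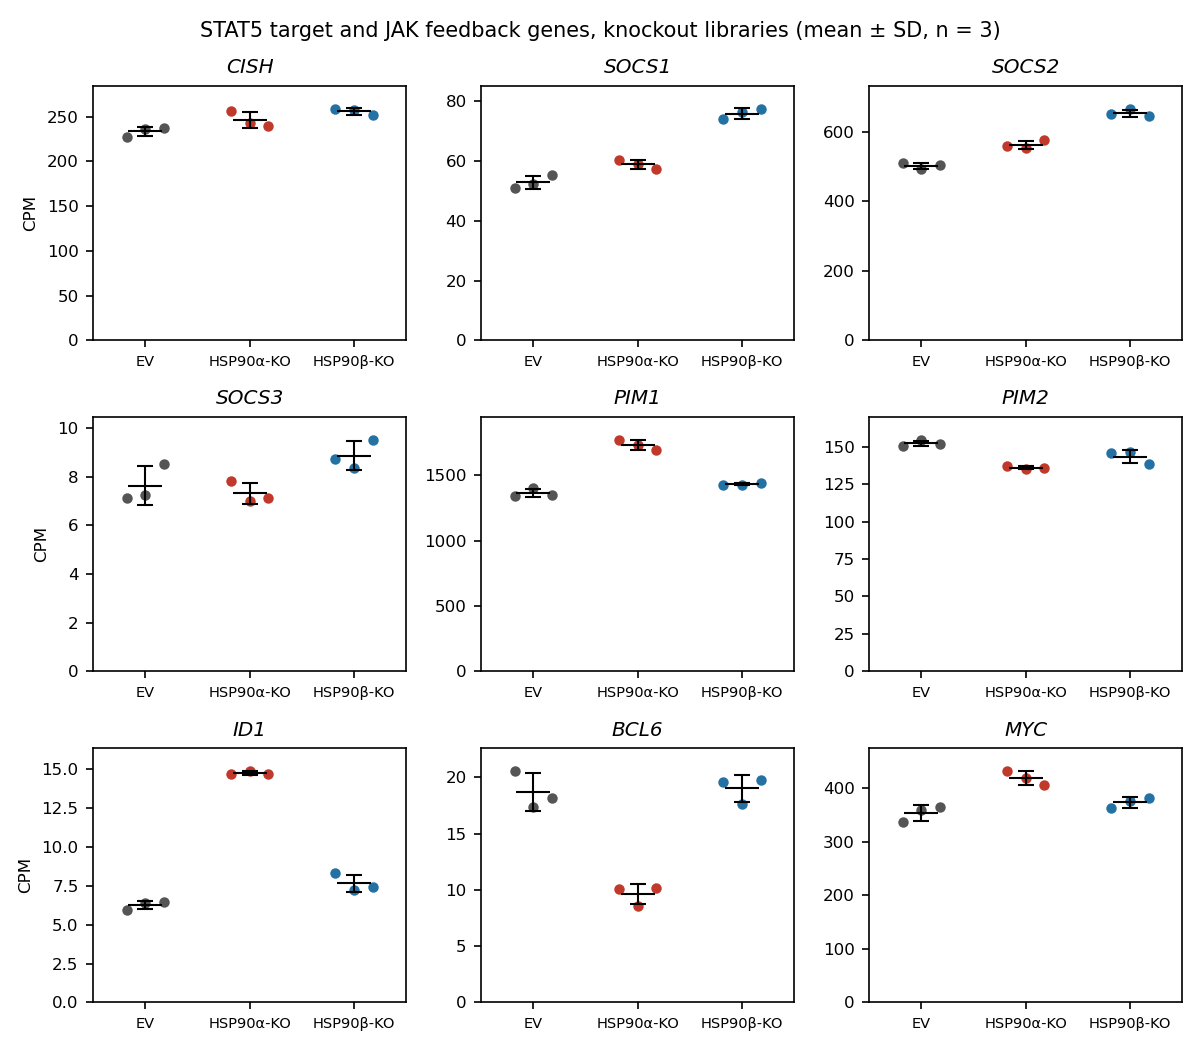
CPM of the 9 listed members in each library of the knockout table, with the group mean and standard deviation. Each panel has its own scale.

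The panels of the knockout table show small spreads within groups for most members. SOCS1 and SOCS2 step up from EV to HSP90α-KO to HSP90β-KO, while ID1 and BCL6 set HSP90α-KO apart from both other groups, in opposite directions.

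PIM1 codes for a serine/threonine kinase that needs no activation step and is regulated by its amount. PIM1 stood at 1343, 1398 and 1352 CPM in EV, at 1768, 1730.4 and 1690.0 CPM in HSP90α-KO and at 1427, 1422 and 1437 CPM in HSP90β-KO. All HSP90α-KO libraries were well above the rest, and HSP90β-KO was just above EV without overlap. PIM1 rose in HSP90α-KO with a log2 fold change of 0.34 (95% interval 0.29 to 0.40, adjusted p = 2.0e-11), a value that quantile normalization lowered to 0.14 (adjusted p = 4.8e-06, in a range of 4.2e-15 to 0.000127 over 20 alternatives). In HSP90β-KO the log2 fold change of PIM1 was 0.07 (95% interval 0.01 to 0.12, adjusted p = 0.0514), and it passed in 8 of 20 alternatives, among them limma-voom, quantile normalization, the fit of the 6 libraries compared, and the omission of EV replicate 2 or any HSP90α-KO replicate (adjusted p 0.000116 to 0.528). That value was 0.11 with quantile normalization (adjusted p = 0.000116) and 0.02 with median centring (adjusted p = 0.528). For PIM1, HSP90α-KO against HSP90β-KO gave 0.28 (adjusted p = 1.0e-09), which quantile normalization took to 0.02 (adjusted p = 0.308, in a range of 5.1e-13 to 0.308). The level of PIM1 was thus higher in HSP90α-KO by scaling on effective library size, and the size of the difference depended on the normalization.

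In the resistance table PIM1 stood at 476, 482 and 479 CPM in parental cells and at 369, 367 and 366 CPM in PUHr. The groups lay far apart with very little spread within them. PIM1 fell with a log2 fold change of -0.38 (95% interval -0.43 to -0.34, adjusted p = 9.9e-10), and the call was kept in all 16 alternatives (log2 fold change -0.43 to -0.29, adjusted p 9.1e-19 to 0.000344).

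PIM2, a kinase of the same family that is controlled mainly through transcription, stood at 151, 154 and 151 CPM in EV, at 137, 135 and 135 CPM in HSP90α-KO and at 145, 146 and 138 CPM in HSP90β-KO. It moved against PIM1: both knockouts were below EV in every library, HSP90α-KO the lowest. PIM2 fell in HSP90α-KO with a log2 fold change of -0.16 (95% interval -0.23 to -0.10, adjusted p = 0.000129). For PIM2 in HSP90β-KO the log2 fold change was -0.09 (95% interval -0.15 to -0.02, adjusted p = 0.0416), a call lost in 8 of 20 alternatives, namely the replicate block (adjusted p = 0.0562), the fit without intensity trend and the omission of any EV or HSP90β-KO replicate (adjusted p 0.00331 to 0.23). PIM2 had -0.08 in HSP90α-KO against HSP90β-KO (adjusted p = 0.0437), lost in 8 of 20 alternatives as well, among them the replicate block (adjusted p = 0.0565), median centring and the omission of EV replicate 3 or HSP90α-KO replicates 2 or 3 (adjusted p 0.00114 to 0.403). That value was -0.13 with quantile normalization and -0.03 with median centring. As for resistance, PIM2 stood at 116, 112 and 106 CPM in parental cells and at 142, 139.9 and 135 CPM in PUHr. Here PIM2 was higher in all PUHr libraries while PIM1 was lower. The log2 fold change of PIM2 was 0.32 (95% interval 0.25 to 0.40, adjusted p = 1.8e-06), kept in all 16 alternatives (adjusted p 7.7e-11 to 0.0101).

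OSM, a cytokine of the IL6 family and a known STAT5 target in blood cells, was not listed in the knockout table. In the resistance table it had 0 reads in all 6 libraries, where 1 read was 0.0402 to 0.0469 CPM and 3 reads, the limit used for the floor, were 0.120 to 0.141 CPM. OSM was therefore at the floor in both groups, and no fold change is given.

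**Figure D3:**
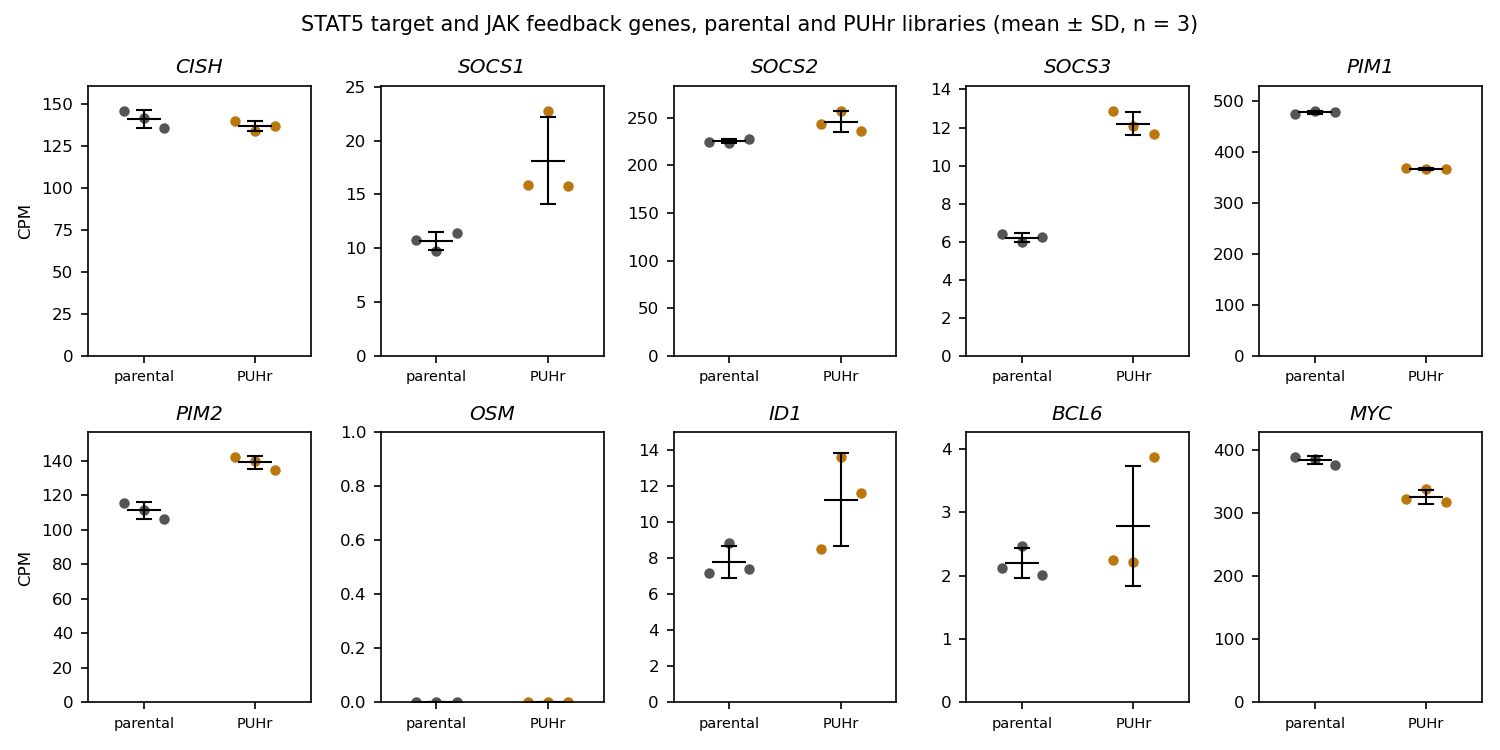
CPM of the 10 members in each library of the resistance table, with the group mean and standard deviation. OSM had 0 reads throughout.

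The panels of the resistance table set SOCS3, SOCS1 and PIM2 above parental cells and PIM1 and MYC below. The spread within PUHr was wide for SOCS1, ID1 and BCL6 and narrow for PIM1.

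ID1 codes for a helix-loop-helix protein without a DNA-binding region, which holds other transcription factors off DNA. ID1 stood at 5.94, 6.36 and 6.44 CPM in EV, on 125 to 169 reads, at 14.7, 14.9 and 14.7 CPM in HSP90α-KO, on 286 to 301 reads, and at 8.30, 7.21 and 7.44 CPM in HSP90β-KO, on 169 to 188 reads. The 3 groups did not overlap, and HSP90α-KO stood far above the others. ID1 was the only member that changed, with a log2 fold change of 1.23 in HSP90α-KO (95% interval 1.05 to 1.41, adjusted p = 2.9e-12), and 7.44% of tested genes had a larger absolute value. The pseudocount of 5 CPM lowered it to 0.81 (adjusted p = 5.7e-12, in a range of 2.5e-13 to 3.2e-06 over 20 alternatives), below the limit of 1. In HSP90β-KO the log2 fold change of ID1 was 0.29 (95% interval 0.11 to 0.46, adjusted p = 0.0109), and without HSP90β-KO replicate 1 it was 0.23 (adjusted p = 0.0777, in a range of 0.00846 to 0.0777), which ended the call, and with the pseudocount of 5 CPM it was 0.17. HSP90α-KO against HSP90β-KO gave 0.94 (95% interval 0.76 to 1.12, adjusted p = 4.1e-10).

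ID1 in the resistance table stood at 7.14, 8.81 and 7.41 CPM in parental cells and at 8.48, 13.6 and 11.6 CPM in PUHr. The groups overlapped, since PUHr replicate 1 lay below parental replicate 2. The log2 fold change of ID1 was 0.50 (95% interval 0.20 to 0.80, adjusted p = 0.00746), and the call was lost without the filter on low values (adjusted p = 0.338) and without the intensity trend (adjusted p = 0.0855), in a range of 0.000104 to 0.338 over 16 alternatives. It was 0.35 without PUHr replicate 2 (adjusted p = 0.00727) and 0.69 without PUHr replicate 1 (adjusted p = 0.000104), and the pseudocount of 5 CPM gave 0.33.

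BCL6, a transcription repressor best known from germinal center B cells and one of the genes that STAT5 holds down, stood at 20.5, 17.4 and 18.2 CPM in EV, at 10.1, 8.60 and 10.2 CPM in HSP90α-KO and at 19.6, 17.7 and 19.8 CPM in HSP90β-KO. HSP90α-KO lay below both other groups in all libraries, and EV and HSP90β-KO overlapped. BCL6 fell in HSP90α-KO with a log2 fold change of -0.95 (95% interval -1.12 to -0.79, adjusted p = 8.6e-11), and 11.1% of tested genes had a larger absolute value. Leaving out 1 library gave -1.01 to -0.88, past -1 without EV replicate 2, and the pseudocount of 5 CPM gave -0.70 (adjusted p = 7.4e-10, in a range of 1.4e-11 to 0.000105 over 20 alternatives). In HSP90β-KO the log2 fold change of BCL6 was 0.03 (95% interval -0.14 to 0.19, adjusted p = 0.831, 0.439 to 0.986 over 20 alternatives), and it was -0.02 with median centring, -0.02 without EV replicate 2 and -0.00 without HSP90β-KO replicate 3. HSP90α-KO against HSP90β-KO gave -0.98 (95% interval -1.14 to -0.82, adjusted p = 3.5e-11), which passed -1 without HSP90α-KO replicate 1 (-1.02), HSP90α-KO replicate 3 (-1.02) or HSP90β-KO replicate 2 (-1.03).

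BCL6 in the resistance table had few reads, 43 to 59 in parental cells and 53 to 87 in PUHr. It stood at 2.11, 2.47 and 2.02 CPM in parental cells and at 2.25, 2.22 and 3.87 CPM in PUHr. PUHr replicate 3 was high and the other 2 lay within the parental range. The log2 fold change of BCL6 was 0.28 (95% interval -0.15 to 0.71, adjusted p = 0.262), and 0.02 without PUHr replicate 3 (adjusted p = 0.923, in a range of 0.0703 to 0.923), while it was 0.10 with the pseudocount of 5 CPM and 0.40 without PUHr replicate 1. BCL6 shares 171 and 316 exon bases with 2 genes on the other strand.

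MYC, the transcription factor that drives ribosome production and cell growth, stood at 336, 359.9 and 366 CPM in EV, at 432, 419 and 407 CPM in HSP90α-KO and at 363, 376 and 382 CPM in HSP90β-KO. HSP90α-KO was above all other libraries, and HSP90β-KO overlapped EV. MYC rose in HSP90α-KO with a log2 fold change of 0.25 (95% interval 0.18 to 0.31, adjusted p = 5.0e-07), which quantile normalization lowered to 0.15 (adjusted p = 0.000355, in a range of 4.7e-08 to 0.00337 over 20 alternatives). For HSP90β-KO the log2 fold change of MYC was 0.08 (95% interval 0.01 to 0.15, adjusted p = 0.0638), and it passed in 8 of 20 alternatives, among them limma-voom and the omission of EV replicate 2 or EV replicate 3 (adjusted p 0.00891 to 0.425). It was 0.11 with quantile normalization (adjusted p = 0.00891), 0.04 with median centring (adjusted p = 0.425) and 0.04 without EV replicate 1 (adjusted p = 0.372). HSP90α-KO against HSP90β-KO gave 0.17 (adjusted p = 0.000102), lost with quantile normalization at 0.04 (adjusted p = 0.289, in a range of 3.3e-06 to 0.289). For resistance, MYC stood at 388, 384 and 376 CPM in parental cells and at 321, 337 and 317 CPM in PUHr. The groups did not overlap, and MYC fell in PUHr as PIM1 did. The log2 fold change of MYC was -0.24 (95% interval -0.29 to -0.18, adjusted p = 3.2e-06), kept in all 16 alternatives. MYC shares 194 exon bases with CASC11 on the other strand.

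Levels were compared between members per kilobase of annotated exon. In EV the mean level was highest for PIM1, at 450.3 CPM per kilobase, followed by SOCS2 at 77.5, MYC at 57.9, PIM2 at 55.1, CISH at 46.2 and SOCS1 at 29.5 CPM per kilobase. ID1 at 5.07, BCL6 at 3.15 and SOCS3 at 2.79 CPM per kilobase were at the lower end. In this order the libraries of MYC and PIM2 overlapped, and so did those of BCL6 and SOCS3. In HSP90α-KO ID1 stood at 12.0, SOCS3 at 2.67 and BCL6 at 1.62 CPM per kilobase, so BCL6 was the lowest there. In HSP90β-KO SOCS2 stood at 101, SOCS1 at 42.4, SOCS3 at 3.24 and BCL6 at 3.20 CPM per kilobase, the last 2 overlapping. PIM1 was the highest in parental cells too, at 158 CPM per kilobase, followed by MYC at 62.7, PIM2 at 40.3, SOCS2 at 34.8 and CISH at 27.9 CPM per kilobase. SOCS1 and ID1 overlapped in parental cells, at 5.95 and 6.32 CPM per kilobase, and in PUHr, at 10.1 and 9.10 CPM per kilobase. In both tables PIM1 was first, and in the resistance table BCL6 was the lowest of the 9, at 0.371 CPM per kilobase in parental cells and 0.468 in PUHr.

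The members lie on 9 chromosomes, with CISH and BCL6 far apart on chromosome 3. The 20 tested genes on either side of each member were taken as a description of its surroundings. Around ID1 the 40 neighbours had log2 fold changes of -1.25 to 0.47 in HSP90α-KO, median -0.09, and 0 of 40 lay above ID1. Around BCL6 in HSP90α-KO the neighbours had -2.16 to 0.71, median -0.09, and 1 of 40 lay further down than BCL6. For SOCS1 in HSP90β-KO the neighbours had -1.14 to 0.48, median 0.05, and 0 of 40 lay above SOCS1, the highest of them just below its 0.52. In these 3 cases few or no neighbours went as far in the same direction, while single neighbours of ID1 and SOCS1 went as far or further in the other. For SOCS1 and SOCS2 in HSP90α-KO, the neighbours had medians of 0.12 and 0.14, near the 0.16 of each gene, and 19 and 18 of 40 lay above them. Around SOCS3 in PUHr the median was 0.06, with 3 of 40 neighbours above SOCS3, and around PIM1 it was 0.09, with 2 of 40 further down.

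The kinase that drives the pathway in this line was looked at through its 2 genes, without telling the fused from the unfused transcript. BCR stood at 131, 141 and 133 CPM in EV, at 158, 150.2 and 135 CPM in HSP90α-KO and at 143, 139.7 and 143 CPM in HSP90β-KO. The groups overlapped, with a log2 fold change of 0.13 in HSP90α-KO (adjusted p = 0.0124) and 0.07 in HSP90β-KO (adjusted p = 0.181), and HSP90α-KO against HSP90β-KO gave 0.05 (adjusted p = 0.289). ABL1 stood at 312, 315 and 305 CPM in EV, at 326, 319.7 and 305 CPM in HSP90α-KO and at 327, 331 and 334 CPM in HSP90β-KO. HSP90β-KO alone was above EV in all libraries, with a log2 fold change of 0.09 (adjusted p = 0.0197), against 0.03 in HSP90α-KO (adjusted p = 0.459) and -0.06 between the knockouts (adjusted p = 0.0706). In PUHr both genes were slightly above parental cells in all libraries, with log2 fold changes of 0.11 for BCR (adjusted p = 0.0062) and 0.08 for ABL1 (adjusted p = 0.0238).

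The rest of the pathway was described through 47 further genes in 6 lists, with 39 tested among the knockout libraries and 38 among those of PUHr and parental cells. The counts, shares and medians of this paragraph, of the receptors and of the further STAT5 targets leave out the genes that reached the filter on low values only through 1 group of their table, a restriction set after seeing the data and made on all tested genes in the same way. It took CSF2RB from the lists in the knockout table, and CSF2RB and ID3 in the resistance table, which left 38 and 36 genes. In HSP90α-KO against EV 19 of 38 rose and 10 fell, so 76.3% passed where 54.4% of all genes left did, and the median log2 fold change was 0.12 where that of all genes left was -0.01. In HSP90β-KO against EV 10 of 38 rose and 8 fell, so 47.4% passed where 35.2% of all genes left did, with a median of 0.02. In PUHr 10 of 36 rose and 8 fell, so 50% passed, near the 52.0% of all genes left, with a median of 0.04, and all genes left had a median of 0.00 in both comparisons. Neither direction held the lists as a whole in HSP90β-KO or PUHr.

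**Figure D4:**
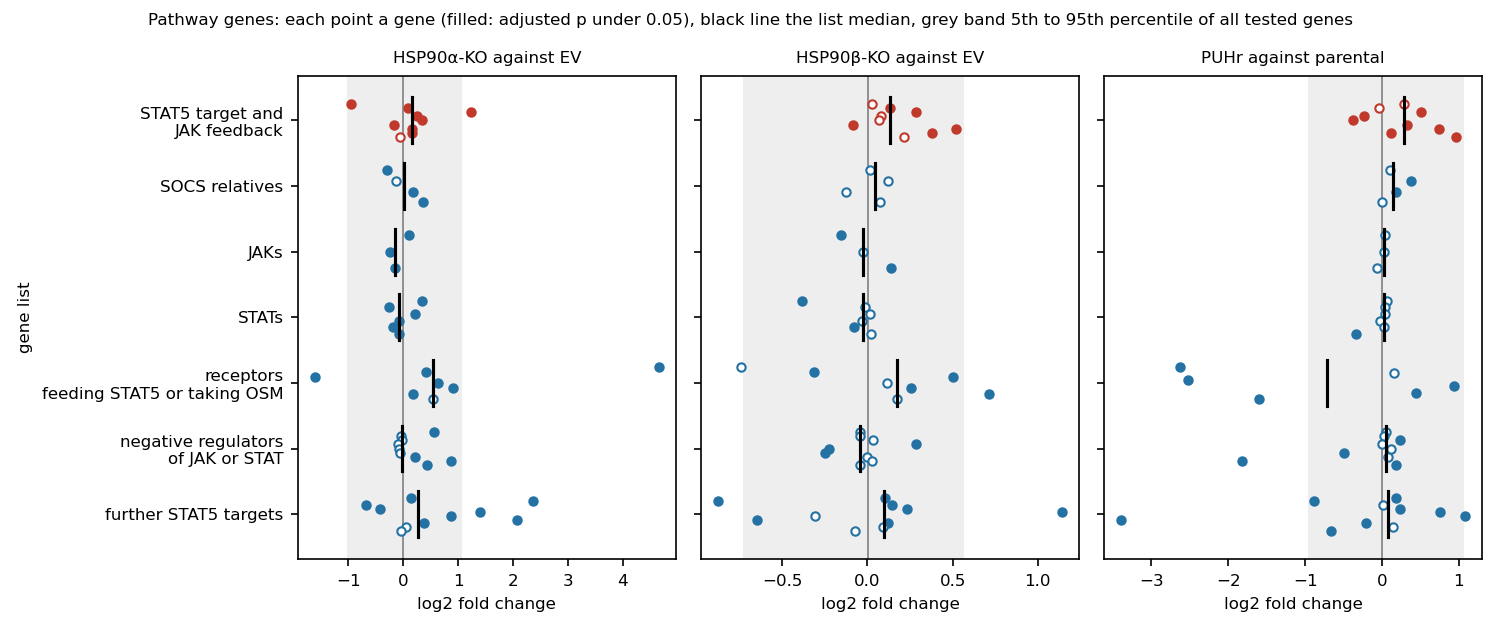
Log2 fold change of each tested gene by list in 3 comparisons, with the median of each list as a black line. The grey band spans the 5th to 95th percentile of all tested genes and the grey line is their median.

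The plot of lists shows every tested gene, so CSF2RB and ID3 are drawn and enter its medians though they were near the floor in a group. STATs lay between -0.34 and 0.07 in PUHr.

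Of the SOCS relatives SOCS4 to SOCS7, 2 of 4 rose and 1 fell in HSP90α-KO (75% passing, 54.2% of all tested genes), and 2 of 4 rose in PUHr (50% passing, 51.4% of all tested genes), while in HSP90β-KO their log2 fold changes lay between -0.13 and 0.12 and did not pass. Of 3 tested JAKs 1 rose and 2 fell in HSP90α-KO, where 54.2% of all tested genes passed, 1 rose and 1 fell in HSP90β-KO (66.7% passing, 34.4% of all tested genes), and in PUHr their log2 fold changes lay between -0.07 and 0.04 and did not pass. JAK2, the kinase most tied to STAT5, had a mean of 37.5 CPM in EV (SD 1.83, n = 3 libraries), 31.8 CPM in HSP90α-KO (SD 1.30) and 36.8 CPM in HSP90β-KO (SD 1.14). It fell in HSP90α-KO with a log2 fold change of -0.23 (adjusted p = 0.000334), with -0.03 in HSP90β-KO (adjusted p = 0.733), -0.21 between the knockouts (adjusted p = 0.000969) and 0.02 in PUHr (adjusted p = 0.719).

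Of 6 tested STATs 2 rose and 4 fell in HSP90α-KO, 2 fell in HSP90β-KO and 1 fell in PUHr. All 6 STATs thus passed in HSP90α-KO, where 54.2% of all tested genes did, 33.3% in HSP90β-KO, near the 34.4% of all genes, and 16.7% in PUHr, below the 51.4% of all genes. STAT5B stood at a mean of 359 CPM in EV (SD 3.92), 315 CPM in HSP90α-KO (SD 4.65) and 339.9 CPM in HSP90β-KO (SD 4.29). It fell in both knockouts, with log2 fold changes of -0.19 (adjusted p = 2.1e-06) and -0.08 (adjusted p = 0.0268). STAT5A had log2 fold changes of -0.09 in HSP90α-KO (adjusted p = 0.0166), -0.03 in HSP90β-KO (adjusted p = 0.442) and -0.05 between the knockouts (adjusted p = 0.121). Both STAT5 genes were near 0 in PUHr, at -0.03 for STAT5A (adjusted p = 0.513) and 0.02 for STAT5B (adjusted p = 0.538). STAT3, the main partner of OSM and IL6 receptors, rose in HSP90α-KO with a log2 fold change of 0.21 (adjusted p = 2.4e-06), against 0.02 in HSP90β-KO (adjusted p = 0.745), 0.19 between the knockouts (adjusted p = 5.8e-06) and 0.04 in PUHr (adjusted p = 0.22).

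Of 13 receptors that feed STAT5 or take OSM, 7 were tested in the knockout table. Of the 6 without CSF2RB, 4 rose and 1 fell in HSP90α-KO, 83.3% passing where 54.4% of all genes left did, and their median was 0.47. In HSP90β-KO 3 of the 6 rose and 1 fell, 66.7% passing where 35.2% of all genes left did, with a median of 0.21. CSF2RB, the shared chain of the IL3 and GM-CSF receptors, stood at 0.143, 0.193 and 0.496 CPM in EV, on 3 to 13 reads, and at 8.88, 8.29 and 8.06 CPM in HSP90α-KO. In HSP90β-KO it stood at 0.0954, 0.171 and 0.0792 CPM, on 2 to 4 reads. CSF2RB was near the floor in EV and HSP90β-KO and far above it in HSP90α-KO, and since it reached the filter on low values only through HSP90α-KO, it is described by its levels, with no fold change or test. IL2RA, a receptor chain that STAT5 is known to raise, stood at 4.18, 5.25 and 5.76 CPM in EV and at 1.66, 1.14 and 2.10 CPM in HSP90α-KO. It fell there with a log2 fold change of -1.61 (adjusted p = 4.2e-09) and rose in HSP90β-KO with 0.50 (adjusted p = 0.0182), with -2.11 between the knockouts (adjusted p = 1.5e-11). In PUHr 2 of the 5 tested receptors without CSF2RB rose and 2 fell, 80% passing where 52.0% of all genes left did, with a median log2 fold change of 0.16. IL2RG stood at 15.1, 15.0 and 15.0 CPM in parental cells and 2.57, 2.68 and 2.40 CPM in PUHr, a log2 fold change of -2.52 (adjusted p = 1.7e-11). CSF2RB stood at 1.23, 1.13 and 1.13 CPM in parental cells and 0.161, 0.167 and 0.0445 CPM in PUHr, on at most 4 reads, near the floor, and it reached the filter only through parental cells, so its fold change and test are not given. The OSM receptor gene OSMR stood at 3.89, 3.65 and 2.91 CPM in parental cells and 1.41, 1.25 and 0.712 CPM in PUHr, a log2 fold change of -1.60 (adjusted p = 2.7e-05). IL2RG, CSF2RB and OSMR were thus lower in every PUHr library, while IL6ST and LIFR of the same list were higher in every PUHr library. IL6ST stood at 37.0 to 39.4 CPM in parental cells and 71.9 to 76.6 CPM in PUHr, a log2 fold change of 0.94 (adjusted p = 8.9e-11). LIFR stood at 37.2 to 39.9 CPM in parental cells and 52.0 to 53.6 CPM in PUHr, a log2 fold change of 0.44 (adjusted p = 3.7e-07).

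Of 9 other negative regulators of JAK or STAT, 4 rose and none fell in HSP90α-KO, 1 rose and 2 fell in HSP90β-KO, and 2 rose and 2 fell in PUHr. The shares passing were 44.4%, 33.3% and 44.4%, at or below the 54.2%, 34.4% and 51.4% of all tested genes. PTPN6, the phosphatase SHP-1, stood at 3.04, 3.90 and 3.61 CPM in parental cells and 1.12, 0.669 and 1.07 CPM in PUHr. It fell in PUHr with a log2 fold change of -1.82 (adjusted p = 2.8e-06) and rose in HSP90α-KO with 0.87 (adjusted p = 9.4e-09), against 0.03 in HSP90β-KO (adjusted p = 0.857) and 0.84 between the knockouts (adjusted p = 1.2e-08).

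Of 10 further STAT5 targets, 6 rose and 2 fell in HSP90α-KO and 5 rose and 2 fell in HSP90β-KO, and of the 9 without ID3 4 rose and 3 fell in PUHr, with medians of 0.26, 0.10 and 0.14. The shares passing were 80%, 70% and 77.8%, where all genes left had 54.4%, 35.2% and 52.0%. ID3, a relative of ID1, stood at 4.80, 4.39 and 3.89 CPM in EV and at 19.96, 17.9 and 17.8 CPM in HSP90α-KO. It rose there with a log2 fold change of 2.07 (adjusted p = 1.6e-13) and fell in HSP90β-KO with -0.65 (adjusted p = 0.000198), with 2.72 between the knockouts (adjusted p = 3.1e-16). In the resistance table ID3 stood at 2.62, 2.64 and 2.91 CPM in parental cells and at 0.161, 0.209 and 0.178 CPM in PUHr, on 4 or 5 reads, near the floor. It reached the filter only through parental cells, so its fold change and test are not given. ID2, another relative, stood at 4.95, 4.57 and 4.50 CPM in parental cells and 9.96, 10.1 and 9.79 CPM in PUHr, a rise with a log2 fold change of 1.08 (adjusted p = 1.2e-07). ID2 rose in HSP90α-KO with 0.87 (adjusted p = 8.8e-06), against -0.31 in HSP90β-KO (adjusted p = 0.0949) and 1.17 between the knockouts (adjusted p = 5.6e-08). ID1, ID2 and ID3 thus each rose in HSP90α-KO, and ID4 was not among the listed genes.

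The cyclin gene CCND1 stood at 0.998, 1.01 and 1.30 CPM in EV and 6.30, 5.59 and 6.21 CPM in HSP90α-KO. CCND1 rose there with a log2 fold change of 2.37 (adjusted p = 6.5e-10). It had -0.88 in HSP90β-KO (adjusted p = 0.00249) and 3.24 between the knockouts (adjusted p = 8.1e-13). CCND2 and CCND3, cyclin genes of the same list, were more abundant and fell in HSP90α-KO. CCND2 had a mean of 118 CPM in EV and 73.5 CPM in HSP90α-KO, a log2 fold change of -0.68 (adjusted p = 4.8e-14). CCND3 had 173 and 129 CPM, a log2 fold change of -0.42 (adjusted p = 1.7e-09). In HSP90β-KO both rose, CCND2 with 0.15 (adjusted p = 0.00479) and CCND3 with 0.23 (adjusted p = 6.0e-05). The cell cycle inhibitor gene CDKN1A stood at 3.28, 4.39 and 3.66 CPM in EV, 9.67, 10.6 and 9.75 CPM in HSP90α-KO and 8.73, 7.68 and 8.75 CPM in HSP90β-KO. It was the only listed gene changed in both knockouts, with log2 fold changes of 1.39 (adjusted p = 2.2e-11) and 1.14 (adjusted p = 2.7e-09). The survival gene BCL2L1 rose by little in all 3 comparisons, with 0.14 in HSP90α-KO (adjusted p = 0.00118), 0.10 in HSP90β-KO (adjusted p = 0.0206) and 0.19 in PUHr (adjusted p = 0.00016).

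Over the members, the inhibitors SOCS1 and SOCS2 rose in both knockouts and in PUHr, and both were higher in HSP90β-KO than in HSP90α-KO. PIM1 and MYC rose in HSP90α-KO and fell in PUHr, PIM2 did the opposite in each, and ID1 was the only member beyond a log2 fold change of 1. CISH moved by at most 0.13 in absolute log2 fold change in any comparison, and OSM was not seen.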

How the data were processed

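The authors deposited log2 CPM for 15 RNA-seq libraries in 2 tables, a table of 9 knockout libraries and another of 6 libraries of parental and PUHr cells; the deposited values are log2 CPM with a prior count from edgeR, made by the authors after stranded sequencing, STAR and featureCounts. The members and lists were chosen with earlier results of these data known. CPM and whole reads were recovered from the log2 values. CPM were relative to an effective library size, which differed from the reads on genes. It was below them in all HSP90α-KO and parental libraries and above them in all EV, HSP90β-KO and PUHr libraries. Libraries held 19594381 to 26216730 reads on genes (knockout) and 21584840 to 24477692 (resistance), and 1 read was 0.0381 to 0.0518 and 0.0402 to 0.0469 CPM. Genes with a log2 CPM of at least -1 in at least 3 libraries were fitted with limma 3.58.1 (R 4.3.3) with an intensity trend, 1 fit per table, and p-values were adjusted by Benjamini-Hochberg over all tested genes. A gene passed at an adjusted p under 0.05 and changed if its log2 fold change was also beyond 1. Replicate numbers did not mark pairs, with a correlation of deviations of -0.0481 to 0.031 (knockout) and 0.00675 to 0.0449 (resistance). Alternatives changed the filter, scaling, pseudocount, trend, libraries fitted, replicate block and tool (voom), and left out each library. Named genes were all 10 members, HSP90AA1, HSP90AB1, BCR and ABL1. From the pathway lists they were every changed gene and JAK2, STAT5A, STAT5B, STAT3, BCL2L1, CCND2, CCND3, IL6ST and LIFR. Also named were single markers, genes sharing exon bases with members, and the 3 genes most like CISH and most like PIM1. Exon lengths and overlaps came from GENCODE v44, promoters from RefSeq. Tables and figures were made with Python 3.11.15, pandas 2.3.3, numpy 2.4.6 and matplotlib 3.10.9.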

Additional observations from a re-analysis of the deposited data

How the results depend on the processing

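Of the members' log2 fold changes, 20 alternatives gave 180 values for each knockout comparison and 16 gave 144 for PUHr. Direction and side of the threshold were kept in 169 of 180 for HSP90α-KO against EV, 151 of 180 for HSP90β-KO against EV, 166 of 180 for HSP90α-KO against HSP90β-KO and 138 of 144 for PUHr. The direction turned for BCL6 in HSP90β-KO against EV (-0.0154 with median centring, -0.0248 to 0.0963 with 1 library left out, lowest without EV replicate 2 and at -0.00284 without HSP90β-KO replicate 3) and for SOCS3 in HSP90α-KO against EV (-0.106 to 0.0244 with 1 library left out, highest without EV replicate 3). The cause was not tested.

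Members passing ranged with 1 library left out from 7 to 8 (HSP90α-KO against EV), 4 to 7 (HSP90β-KO against EV), 6 to 9 (HSP90α-KO against HSP90β-KO) and 7 to 7 (PUHr), where 49.1 to 53.4%, 28.6 to 37.3%, 55.1 to 60.9% and 45.0 to 51.3% of all tested genes passed. Without a filter on low values 4 members passed in PUHr, of 10 tested, where 9.66% of 60510 genes did. With a replicate block 7, 4, 7 and 7 members passed in these comparisons, where 53.1%, 33.2%, 59.1% and 51.8% of all tested genes did. Members changed in HSP90α-KO against EV were 0 with a pseudocount of 5 CPM and 1 to 2 with 1 library left out, the second being BCL6 at -1.01 without EV replicate 2. In HSP90α-KO against HSP90β-KO they were 0 to 1 with 1 library left out, BCL6 in 3 cases and ID1 at 1.00 without HSP90β-KO replicate 1.

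All genes changed numbered 1760 in HSP90α-KO against EV, and 717 with the filter at a mean log2 CPM of 1, 823 with a pseudocount of 1 CPM and 346 with 5 CPM. For HSP90β-KO against EV these were 764, then 272, 289 and 90. For HSP90α-KO against HSP90β-KO they were 2166, then 933, 1162 and 507, and for PUHr 1660, then 751, 941 and 385. Scaling moved the split of all passing genes in HSP90β-KO against EV from 2938 higher and 2926 lower to 2134 higher and 3673 lower with median centring. The split of the members in HSP90α-KO against HSP90β-KO moved from 3 higher and 5 lower to 1 higher and 6 lower with quantile normalization.

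The number of clones per group was not known, and protein levels and STAT5 activity were not analysed here. In the knockout comparisons the members with few reads, SOCS3, ID1 and BCL6, had the widest intervals.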

Other observations

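The genes most like CISH over the 9 knockout libraries, among 12341 averaging at least 1 in log2 CPM, were VPS9D1-AS1 (Pearson r = 0.962), FYCO1 (0.960) and POLG (0.956). The genes most like PIM1 were EHD2, TRRAP and SMARCD2 (r = 0.997 for each). Points within a group share its cells, so these values describe likeness over 3 groups. OSM was not listed in the knockout table and had no such genes.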
